A study of Arabidopsis thaliana with 12 samples.

Results

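The LEA_4 genes of Arabidopsis followed here are 6 in number: AT2G42560, AT3G15670, AT3G17520, AT3G53040, AT4G21020 and AT4G36600. They are 6 of the 13333 genes that a probe set of the array names alone, and each of them is named by 1 probe set. They belong to the LEA_4 family, but the list was drawn up with earlier results of these data known and leaves out 9 other measured LEA_4 genes, described further on. Its counts are therefore a description of these 6 genes, not of the family. LEA (late embryogenesis abundant) proteins accumulate when a seed matures and dries. Those of the LEA_4 group are very hydrophilic, are largely unfolded in water, and are built of short repeats that become helices on drying. They are known as protectants of membranes and enzymes in dry cells. ABI3 is a B3-type transcription factor of the seed that acts with abscisic acid and switches on maturation genes, LEA genes among them. Roots do not normally carry out this programme.

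Root cells of ecotype Columbia were stripped of their walls, and the resulting protoplasts were transformed with a form of ABI3 that, per the labels, moves into the nucleus on dexamethasone (DEX). All 12 samples are such cells and, per the labels, differ only in what was added: neither compound, 10 µM DEX, 35 µM cycloheximide (CHX, which blocks translation), or both, with 3 arrays each. The comparison of DEX with no DEX takes in whatever follows from nuclear ABI3; made in the presence of CHX, it is limited to what can happen without newly made protein. The transformed cells are a pool, so a change in the share of cells that respond and a change per cell cannot be told apart. The labels do not say that the replicates were separate preparations, so the p-values measure the spread between these samples, which may be technical. No cells without the construct were analysed here. Changes are differences of log2 intensity fitted with limma, a linear model that shares the estimate of spread between probe sets, and p-values are adjusted over all 22746 probe sets with a threshold of 0.05.

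Every array had the same trimmed mean intensity, 500, so all values are relative to the array's total signal. Median intensities ran from 115.5 to 220.8, and replicates correlated at 0.893 to 0.950 across probe sets. Of 16 root markers, 4 were named on the array. The root ER body genes PYK10 and NAI2 stood at log2 levels of 13.30 ± 0.21 and 12.46 ± 0.47 (SD, n = 3) in untreated cells, whereas the root hair expansin genes EXPA7 and EXPA18 were near the floor at 5.81 and 4.61. None of the 15 leaf markers was named, so leaf cells were not analysed here. Hybridisation controls were low on replicate 1 of CHX alone, at 214.9 against 7102 to 12904 on the other 11 arrays.

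All 6 LEA_4 genes gave a strong signal in untreated root protoplasts, between 4374 and 40416 in intensity, where the ABI3 fusion was present and no DEX had been added. CHX alone lowered 5 of the 6 (16.1% of all probe sets), and DEX added to CHX raised 3 of the 6 (0.255% of all). DEX without CHX moved none past the threshold (0.0132% of all in either direction). The count of 3 was 0 in a fit of only the arrays compared. The lowest intensity of any member on any array was 478.7, far above the floor of 16 applied to the table, so the floor touched no value of these genes. A member's signal was at or above the 75.8th percentile of its array everywhere, and at or above the 94.4th percentile outside the group with CHX alone. Percentiles compare signals of probe sets, which bind with unequal strength, and do not rank transcripts. The highest value, 60425 for AT2G42560, lay close to the top of the measured range on the 12 arrays, where the brightest probe set per array reached 50957 to 75114.

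**Figure D1:**
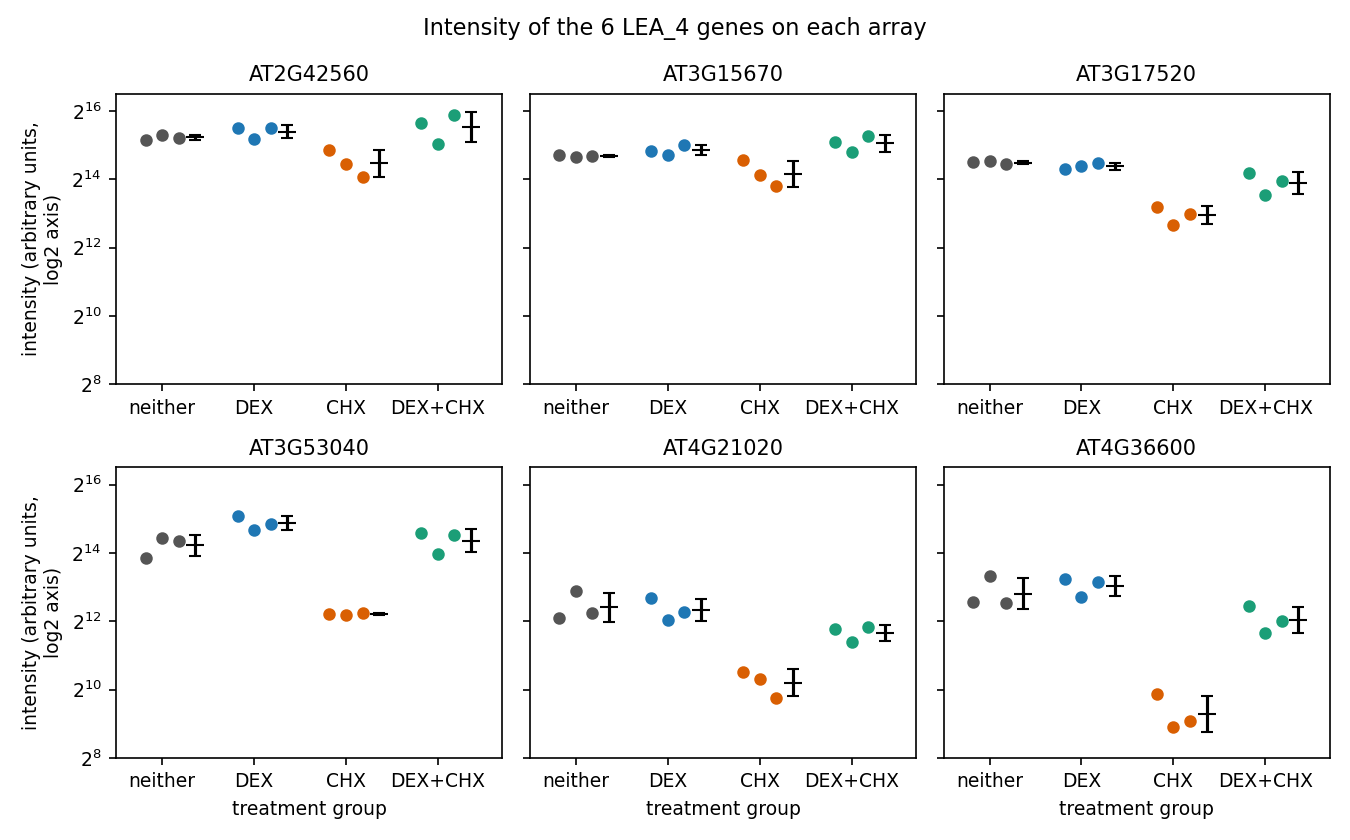
Intensity (arbitrary units, log2 axis) of each LEA_4 gene on each of the 12 arrays, by treatment group. Points are arrays, and the bar beside them is the mean of log2 values ± SD (n = 3). In every panel the 3 arrays with CHX alone lie below the 3 with both compounds, with a gap that is widest for AT4G36600.

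AT4G36600 moved furthest in both directions. Its intensity was 6105, 10274 and 5909 in untreated cells, and 9679, 6664 and 9008 with DEX. It was 943.2, 478.7 and 538.6 with CHX alone, and 5543, 3253 and 4151 with both compounds. The groups with and without DEX overlapped in the absence of CHX, while in its presence the lowest array with DEX was above the highest without. CHX alone thus lowered it 11.5-fold (log2 change -3.52, SE 0.30; limma adjusted p = 1.21e-06). DEX given with CHX raised it 6.75-fold (log2 change 2.76, SE 0.30; limma adjusted p = 0.00145).

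AT3G53040 had the next largest rise with DEX in the presence of CHX, while AT4G21020 had the next largest fall with CHX alone. AT3G53040 read 14878, 22345 and 20818 in untreated cells, and 34576, 26035 and 29606 with DEX alone. With CHX alone it read 4754, 4690 and 4824, the tightest group of any member (SD 0.02 on the log2 scale), and with both it read 24327, 16060 and 23525. The fall with CHX was 4.01-fold (95% interval of the log2 change -2.46 to -1.54; limma adjusted p = 9.26e-06). The rise with DEX in the presence of CHX was 4.40-fold (log2 change 2.14, SE 0.21; limma adjusted p = 0.000977). AT3G53040 was also the only member whose arrays with DEX alone all lay above the untreated ones (6.87% of all probe sets did so), at a log2 change of 0.65 (SE 0.21, 95% interval 0.19 to 1.11). That difference had an unadjusted p of 0.00951 in limma and did not pass over all probe sets (limma adjusted p = 0.670).

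AT4G21020, whose protein is known to enter mitochondria, was at 4374, 7566 and 4853 in untreated cells. DEX alone gave 6521, 4192 and 4982, which overlap the untreated arrays. CHX alone gave 1465, 1279 and 861.6, and both compounds gave 3472, 2677 and 3613. No array with CHX alone reached the lowest of any other group. CHX lowered it 4.63-fold (log2 change -2.21, SE 0.25; limma adjusted p = 1.97e-05), and DEX with CHX raised it 2.75-fold (log2 change 1.46, SE 0.25; limma adjusted p = 0.0368). In the second comparison the call was lost in 12 of 22 alternatives, where adjusted p-values went up to 0.224.

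AT3G17520 was lowered by CHX, but its difference with DEX missed the threshold. Untreated cells gave 23131, 23555 and 22083, and DEX gave 19951, 21378 and 22976. CHX alone gave 9319, 6467 and 8089, and both gave 18643, 11841 and 15903. All 3 arrays with both lay between the arrays with CHX alone and those without CHX. The fall with CHX was 2.91-fold (log2 change -1.54, SE 0.20; limma adjusted p = 4.98e-05). The difference between both compounds and CHX alone was 0.95 (SE 0.20; limma adjusted p = 0.0976).

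AT2G42560 and AT3G15670 were the members with the smallest falls with CHX alone. They shared one order of group means, with both compounds highest and CHX alone lowest. They were also the brightest members in untreated cells, at log2 levels of 15.22 and 14.69. Whether bright signals give smaller changes on these arrays was not tested. AT2G42560 read 36215, 40416 and 38174 untreated and 46206, 37049 and 46438 with DEX. It read 29832, 22525 and 17081 with CHX, and 51714, 33400 and 60425 with both. Its decrease of 0.76 (SE 0.26) with CHX passed narrowly (limma adjusted p = 0.0474) and failed in 15 of 22 alternatives. Between both compounds and CHX alone it differed by 1.06 (SE 0.26), short of the threshold (limma adjusted p = 0.218).

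AT3G15670 read 26913, 25766 and 26457 untreated and 29231, 26780 and 32938 with DEX. It read 24087, 17667 and 14339 with CHX, and 34803, 28328 and 39466 with both. The arrays with CHX alone were again the 3 lowest. The changes were -0.53 (SE 0.22) for CHX alone and 0.89 (SE 0.22) for DEX with CHX, and neither passed (limma adjusted p = 0.0953 and 0.204).

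**Figure D2:**
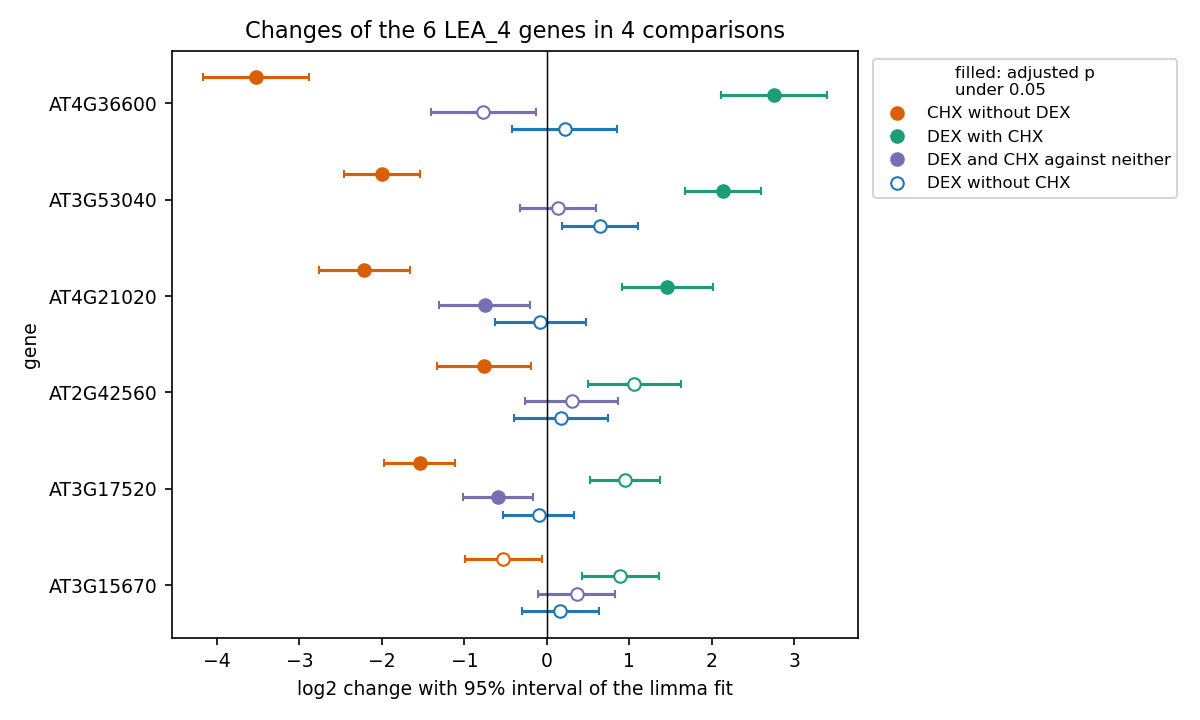
Log2 change of each LEA_4 gene in 4 comparisons, with the 95% interval of the limma fit (filled points have an adjusted p under 0.05 over all probe sets). CHX without DEX (orange) lies below 0 for all 6 genes and DEX with CHX (green) above 0 for all 6, with the widest separation for AT4G36600 at -3.52 and 2.76.

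Set against the whole array, the DEX response with CHX called 3 of 6 LEA_4 genes higher where 0.255% of the 22746 probe sets were called higher. None of the 6 was called lower, and 0.0176% of probe sets were. The arrays of the compared groups did not overlap for 6 of 6 members, all higher, against 4.26% of all probe sets higher without overlap. Shares over all probe sets, here and elsewhere, are not matched to the members for brightness or precision. In this comparison the members had SEs of 0.20 to 0.30, where the median SE of all probe sets was 0.45. A background of like brightness was not tested. The median log2 change of the 6 was 1.26 where that of all probe sets was -0.12, a distance of 1.38 that was 1.12 after quantile normalization. Centring arrays on their medians shifts all probe sets alike, so it cannot change this distance. The count of 3 was 2 without replicate 3 of untreated cells, replicate 3 of DEX alone, any replicate of CHX alone, or replicate 1 or 3 of both compounds, and 5 without replicate 2 of both. A fit of only the 6 arrays compared called 0 of the 6 genes, and 0 of all probe sets, with limma adjusted p-values of 0.0551 for AT3G53040 and 0.122 for AT4G36600.

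Replicate 2 of both compounds was the lowest of its group for 6 of 6 LEA_4 genes, and it had one of the 2 lowest weights, 0.468, when limma weighted arrays by how closely they follow their group. The other low weight, 0.438, was that of replicate 2 of untreated cells, which was the highest of its group for 5 of 6. Without these 2 arrays, an alternative added after seeing the data, DEX with CHX called 5 of the 6 genes higher. Over all probe sets it then called 107 higher and 286 lower, against 58 and 4 with all arrays. The ubiquitin 3′ to 5′ signal ratio, which reflects how intact and fully labelled the RNA was, stood at 5.08 to 6.10 with CHX alone and 6.51 to 8.01 with both, and a second ubiquitin probe pair gave 3.89 to 3.95 and 4.86 to 8.59. The GAPDH ratio was 2.1889 to 2.2983 with CHX alone and 2.5025 to 4.3339 with both. The actin ratio overlapped, at 5.66 to 16.6 with CHX alone and 4.79 to 11.4 with both. The part of RNA quality in the DEX response was not tested.

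**Figure D3:**
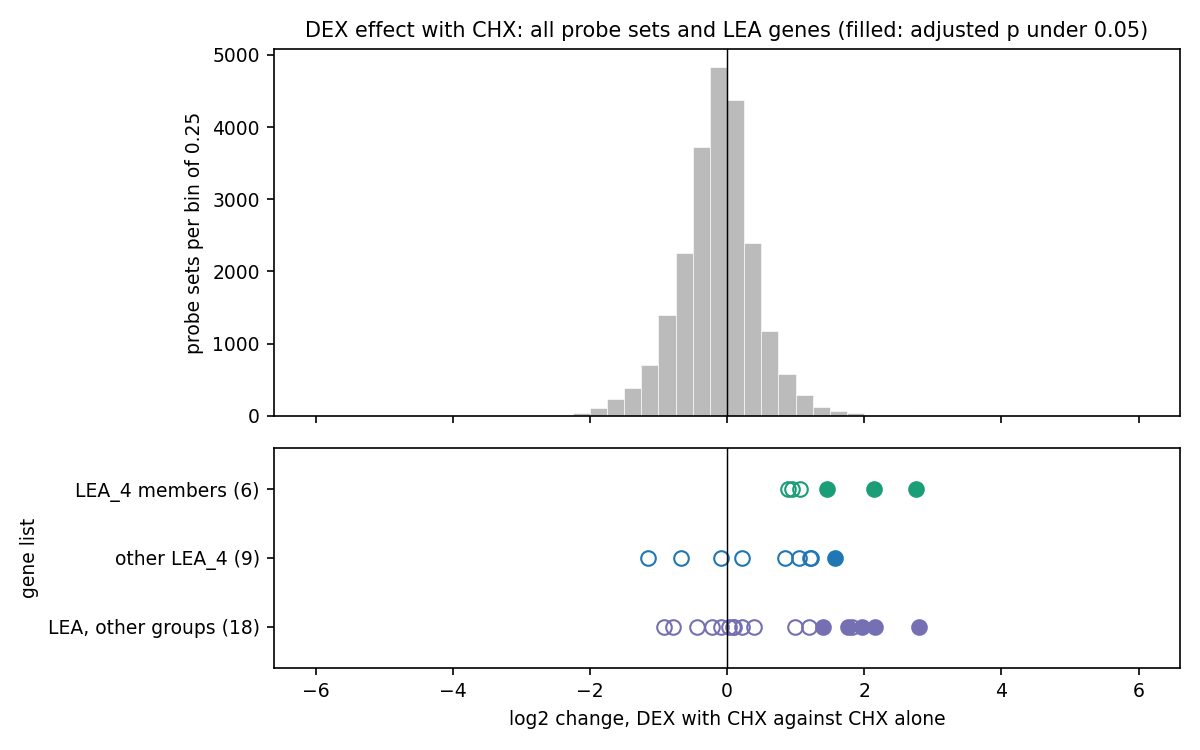
Log2 change for DEX with CHX against CHX alone. The upper panel counts all 22746 probe sets in bins of 0.25, and the lower panel shows the 6 LEA_4 genes, the 9 other LEA_4 genes and 18 LEA genes of other groups (filled points have an adjusted p under 0.05). The 6 members lie between 0.89 and 2.76, while the other lists spread to both sides of 0.

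For CHX alone, 5 of 6 members were called lower where 16.1% of all probe sets were. No member was called higher, and 10.9% of probe sets were. The arrays did not overlap for 6 of 6, all lower, against 24.0% of probe sets lower without overlap. The median of the 6 was -1.77 and that of all probe sets -0.05. Between 4 and 6 members were called lower in each of the 22 alternatives. The calls of AT3G17520, AT3G53040, AT4G21020 and AT4G36600 held in all 22. Replicate 1 of CHX alone, the array with low hybridisation controls, was the highest of its group for 5 of 6 members. Without it 6 members were called lower, with AT3G15670 at -0.73 (limma adjusted p = 0.0315). The summed intensity of the 4 root markers, from 13283 to 19836 in untreated cells, was 1462 to 1792 with CHX alone and 937 to 1128 with both, so root ER body transcripts were low in both groups with CHX, whereas the LEA_4 genes had higher values with both than with CHX alone. In untreated cells the ubiquitin 3′ to 5′ ratios were 6.26 to 7.58 and 5.27 to 6.22 for the respective probe pairs and the GAPDH ratio 2.49 to 4.17, all above those with CHX alone given earlier, while the actin ratio, 5.37 to 9.24, overlapped. Whether RNA quality or a shift in the cells sampled has a part in these falls was not tested.

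Without CHX, DEX called 0 of 6 LEA_4 genes in limma, where 0.0132% of probe sets were called, and 1 of 6 had an unadjusted p under 0.05 against 6.42% of all probe sets. The median log2 change was 0.17 beside 0.10 for all probe sets, and with arrays centred on their medians it was -0.03. Changes were above 0 in 4 members and below 0 in 2. The 95% intervals reached at most 0.86 for the 5 members other than AT3G53040. For AT2G42560 they reached 0.74 without CHX and began at 0.49 with it, and for AT3G15670 0.63 and 0.42, so they overlapped. They did not overlap for AT3G17520, AT4G21020 and AT4G36600. The direct test is that of the interaction, given next. The difference between the DEX effects with and without CHX was above 0 for all 6 members, from 0.73 (SE 0.31) for AT3G15670 to 2.54 (SE 0.42) for AT4G36600, where 36.8% of all probe sets were above 0. Tested directly as the interaction, it called 0 of 6 in limma, where 0.0044% of probe sets were called. AT4G36600 came nearest (limma adjusted p = 0.0974), and 6 of 6 had an unadjusted p under 0.05 against 7.98% of all probe sets. Both DEX effects enter this difference, and the CHX-alone arrays are also those of the fall described above, so the values are not separate evidence.

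With both compounds the genes stood at different points relative to untreated cells. AT3G53040 stood at 14.35 ± 0.33 against 14.22 ± 0.31 on the log2 scale (SD, n = 3), with overlapping arrays. AT2G42560 and AT3G15670 had log2 differences of 0.30 (SE 0.26) and 0.36 (SE 0.22), neither past the threshold. AT3G17520 and AT4G21020 were lower, by log2 changes of -0.59 (SE 0.20; limma adjusted p = 0.0376) and -0.75 (SE 0.25; limma adjusted p = 0.0403), and AT4G36600 had a difference of -0.77 (SE 0.30) that did not pass (limma adjusted p = 0.0694). The 2 of 6 called lower compare with 19.1% of all probe sets, and the median of the 6, -0.23, with -0.21 for all. This comparison depends on scaling: it called 4 members lower after quantile normalization and 0 with centring, and AT3G53040 went to -0.61, AT3G15670 to -0.37 and AT2G42560 to -0.26 after quantile normalization. Over all probe sets it called 2459 higher and 4352 lower, and 2998 and 3484 after quantile normalization, or 2901 and 2808 with centring.

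Within DEX-treated cells, CHX called 1 of 6 members lower, AT4G36600 at -0.99 (SE 0.30; limma adjusted p = 0.0221), where 20.4% of all probe sets were called lower. Of the others, AT3G17520, AT3G53040 and AT4G21020 had changes between -0.67 and -0.49 that missed the threshold, and AT2G42560 and AT3G15670 had 0.13 and 0.20. The median of the 6, -0.50, lay near that of all probe sets, -0.46. After quantile normalization 5 members were called lower, with AT3G15670 turning to -0.54, while AT2G42560 turned to -0.49 without passing, and with centring none was. The split over all probe sets, 2411 higher and 4634 lower, went to 3214 and 3413 after quantile normalization and to 3252 and 2261 with centring.

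The order of groups can be read gene by gene from these tests. In AT4G36600 the levels ran DEX (13.03), untreated (12.81), both (12.04) and CHX alone (9.29), and the tests passed between CHX alone and untreated cells, between CHX alone and both, and between DEX and both. In AT3G53040 they ran DEX (14.87), both (14.35), untreated (14.22) and CHX alone (12.22), and the first 3 did not differ past the threshold. In AT4G21020 untreated (12.41) and DEX (12.33) lay together, both (11.66) lay below untreated, and CHX alone (10.20) was lowest. In AT3G17520 the order was the same, with 14.48, 14.39, 13.89 and 12.94, but the step from both to CHX alone missed the threshold. In AT2G42560 and AT3G15670 both compounds gave the highest mean, 15.52 and 15.05, and the call between untreated cells and CHX alone in AT2G42560 was the only one.

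**Figure D4:**
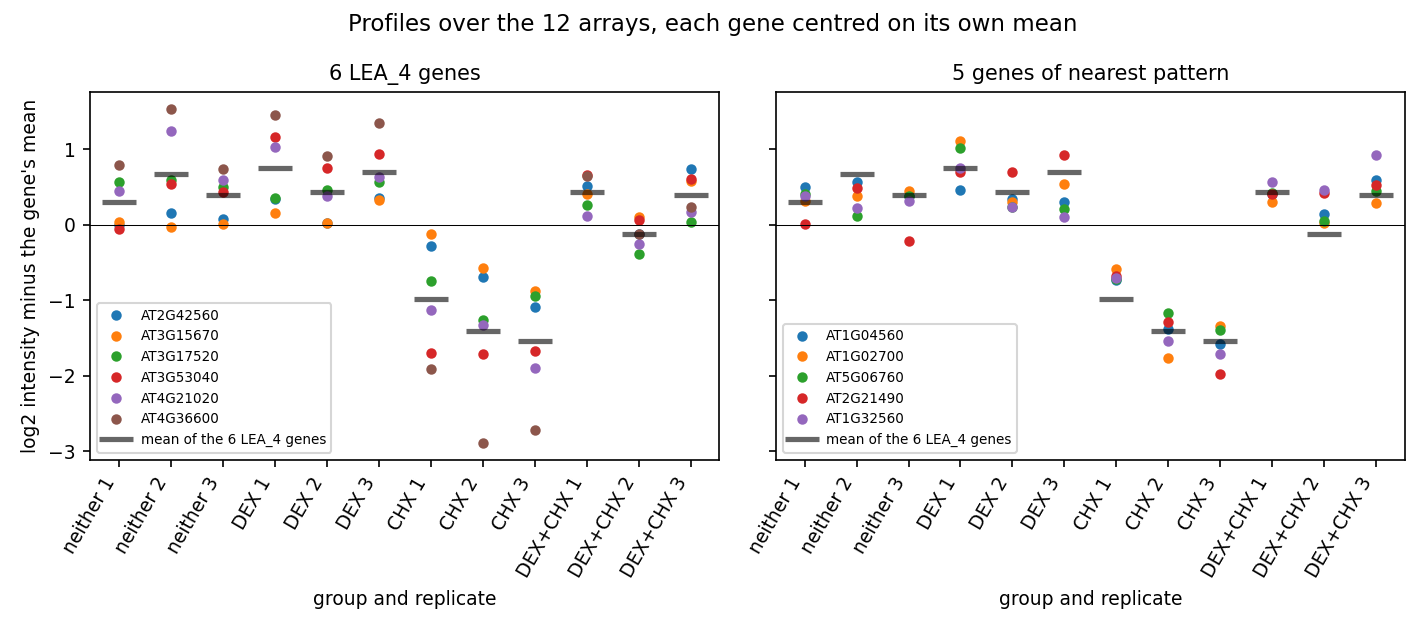
Log2 intensity minus the gene's own mean over the 12 arrays, for the 6 LEA_4 genes (left) and the 5 genes of nearest pattern (right); black bars are the mean of the 6 LEA_4 genes on each array. AT4G36600 has the widest spread and AT3G15670 the narrowest, and all 11 genes are lowest with CHX alone.

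The members' profiles were also compared with each other. Each gene was centred on its mean over the 12 arrays and compared with the mean of the 6 centred members by the root-mean-square difference in log2. AT4G21020 (0.258), AT3G17520 (0.278) and AT3G53040 (0.322) lay close to that mean, AT2G42560 (0.431) and AT3G15670 (0.526) further off, and AT4G36600 (0.751) furthest. The median over 10527 other genes with an SD of at least 0.5 was 1.15. The members are part of the mean they were compared with, so their own values are a description.

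The 5 other genes nearest to the family mean over the 12 arrays included 3 LEA genes of other groups. AT1G04560 was nearest, at 0.198, followed by AT1G02700 at 0.228, LEA4-5 at 0.265, the dehydrin gene AT2G21490 at 0.321 and AtLEA4-1 at 0.335. AT1G04560, of the AWPM-19-like membrane protein family, was at 12.67 untreated, 12.56 with DEX, 10.95 with CHX and 12.57 with both. It rose with DEX in the presence of CHX by 1.62 (SE 0.20; limma adjusted p = 0.0036). AT1G02700 was at 11.23, 11.51, 9.62 and 11.06 in the same order, and its difference of 1.44 (SE 0.27) with DEX and CHX just missed the threshold (limma adjusted p = 0.0513). These 5 were chosen for their likeness, which is therefore not a finding, and nothing about shared control follows from it.

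The remaining LEA_4 genes did not all behave alike. Of 12 further LEA_4 loci, 9 were measured, and DEX with CHX called 1 of them higher and none lower, with 6 changes above 0 and a median of 0.84. The one called was AT3G02480, a small LEA gene, at 13.98 ± 0.36 untreated, 13.28 ± 0.43 with CHX and 14.85 ± 0.24 with both (SD, n = 3; log2 change 1.57, SE 0.25; limma adjusted p = 0.0185). CHX alone called 3 of the 9 lower and none higher, with a median of 0.09 beside -1.77 in the 6 members. The 4 with a change below 0 were AT2G03850 (-3.25), AT1G72100 (-2.83), AT5G44310 (-0.89) and AT3G02480 (-0.695). They were also the brightest of the 9 in untreated cells, at log2 levels from 10.73 to 13.98. The other 5 stood at 8.398 or lower there. The dimmest of them, such as COR15A and AT4G13230 with untreated arrays at the floor, had little room to fall. The interaction had a median of -0.17 over the 9, with 4 above 0, beside 1.27 and 6 of 6 in the members. It was 1.37 for AT1G72100, 1.29 for AT3G02480, 1.27 for AT5G44310 and 0.19 for AT4G13230, but -1.39 for the bright AT2G03850. The 2 lists are not matched for brightness, so their medians do not show that the pattern is particular to the 6. No test of the difference between the 2 lists was made.

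LEA genes of other groups were measured at 18 of 31 listed loci. DEX with CHX called 5 higher and none lower, with 13 changes above 0 and a median of 0.30. AT3G22490, a seed maturation protein gene, rose by 2.80 (SE 0.44; limma adjusted p = 0.0179), from 5.29 ± 0.18 with CHX to 8.08 ± 0.25 with both (SD, n = 3). Its level with CHX lay near the floor, though no array was at it, so the size of this rise is uncertain. LEA18, of the LEA_1 group, rose by 2.15 (SE 0.22; limma adjusted p = 0.00124), AtLEA4-1 of the same group by 1.97 (SE 0.26; limma adjusted p = 0.00506) and the dehydrin gene AT2G21490 by 1.77 (SE 0.28; limma adjusted p = 0.0186). LEA4-5, another LEA_1 gene, rose by 1.40 (SE 0.24; limma adjusted p = 0.0368). CHX alone called 9 of the 18 lower and 2 higher. DEX without CHX called none of the 18, nor any of the 9.

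Storage and oil body genes of the seed, measured at 8 of 19 loci, gave 3 higher and none lower for DEX with CHX. These were the oleosin gene AT2G25890 (2.05, SE 0.32) and the cupin genes AT2G18540 (2.06, SE 0.28) and AT2G28490 (1.73, SE 0.25). The summed intensity of the 8 was 10955 to 12240 in untreated cells, 2489 to 3712 with CHX and 9181 to 13331 with both, so this sum was lowest with CHX alone and overlapped the untreated range with both. AT2G18540 was the brightest of the 8, at a log2 level of 12.80 in untreated cells. With both compounds, 2 of the 8 were called lower than in untreated cells, against 19.1% of all probe sets. AT2G28490 was among them, at a log2 change of -2.13 (limma adjusted p = 2.2e-05). Of the 6 LEA_4 genes, all lowest with CHX alone, AT2G42560 and AT3G53040 overlapped their untreated range with both. AT3G15670 lay above that range, and AT3G17520, AT4G21020 and AT4G36600 lay below it. The matching share over all probe sets is not given here. Of 17 listed regulators of maturation and abscisic acid signalling, 2 bZIP genes were measured. BZIP53, whose product is known to work with ABI3 on seed promoters, rose with CHX alone by 0.69 (limma adjusted p = 0.0118) and had a difference of 0.36 (SE 0.18) for DEX with CHX. EEL, a bZIP of late seed maturation, had -0.13 (SE 0.25). Neither passed for DEX with CHX.

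Among the 12 protein-coding genes that flank the 6 members in the TAIR10.1 gene table, 4 were measured: TBL39 beside AT2G42560, AT3G15680 beside AT3G15670, and AT4G36590 and AT4G36610 on the 2 sides of AT4G36600. None passed for DEX with CHX, with log2 changes from -0.69 to 0.51 and SEs from 0.56 to 0.76. AT3G15680 and AT4G36590 lay near the floor, at log2 levels of 5.27 and 4.15 with CHX alone and 4.78 and 4.66 with both. The lack of a call therefore says little about these genes. AT4G36610 was lowered by CHX alone, by a log2 change of -2.53 (limma adjusted p = 0.00969).

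**Figure D5:**
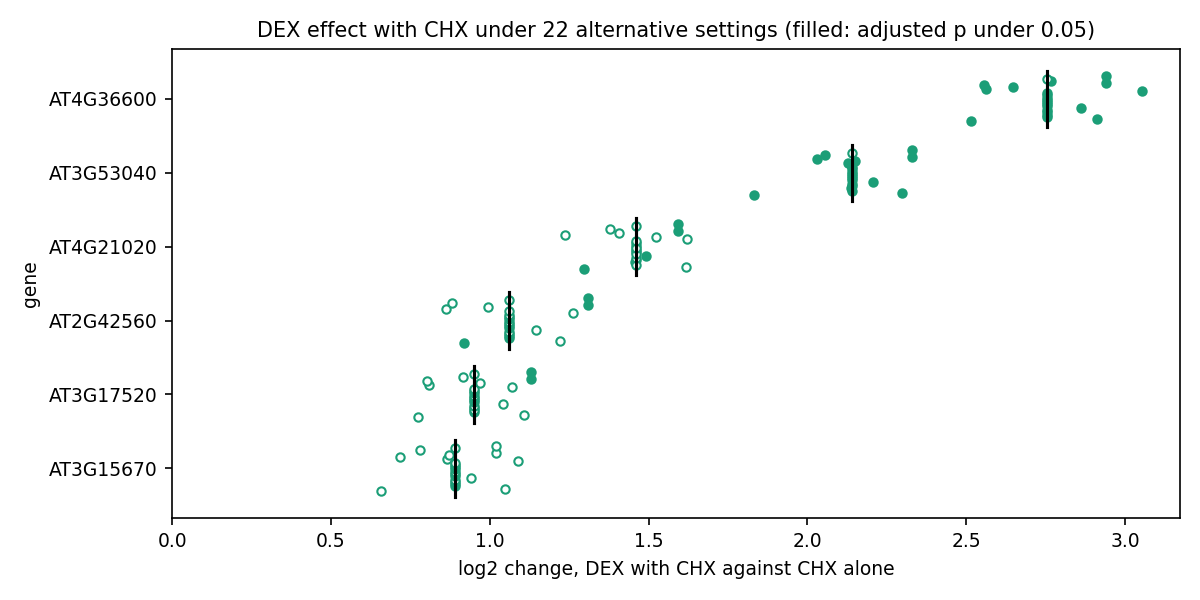
Log2 change for DEX with CHX against CHX alone for each LEA_4 gene under 22 alternative settings (points, filled where the adjusted p is under 0.05) with the reported value as a black line. All points of all 6 genes lie above 0, and AT4G36600 and AT3G53040 are filled in 21 of 22 settings each.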

How the data were processed

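The authors deposited 1 table of intensities on a linear scale, 1 value per probe set and array, for 12 Affymetrix arrays hybridised with biotin-labelled total RNA, per the labels. The software and summary method are not given in the sources used here. Trimming 2% from each end gave a mean of 500 on every array, as global scaling would. The number of arrays limits the precision.

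Values under 16 were set to 16 before log2. Leaving out 64 control probe sets, 22746 were tested. The platform annotation gave 1 gene to 13513, several to 503 and none to 8730, and 13436 took their current name from the TAIR10.1 table by Entrez ID. The probe set of highest mean stood for a gene with several. A limma 3.58.1 model of the 4 group means (R 4.3.3; lmFit and eBayes, variance trend included) used all 12 arrays, with Benjamini-Hochberg adjustment over all 22746 and a threshold of 0.05; the script was tested on simulated data. SDs are over n = 3 arrays.

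Named genes were the 6 members, up to 4 genes per list past the threshold for DEX with CHX (the 2 of highest mean if none passed), and the 5 genes of nearest pattern among those with an SD of at least 0.5. The other measured LEA_4 genes were named after values were seen. LEA lists were written from general knowledge of the family, and flanking genes were chosen after values were seen. The members and lists were chosen with earlier results of these data known. ABI3 itself and sequences were not analysed here. Same-numbered replicates did not deviate together (correlations from -0.439 to 0.294), so their numbers were not taken as pairs. The alternatives tried were median centring, quantile normalization, a floor of 64, a pseudocount of 1 in place of the floor, dropping the 25% of lowest mean, no variance trend, array weights, the replicate block, fitting only the arrays compared and leaving out each array. Tables and figures were made in Python 3.11.15 (pandas 2.3.3, matplotlib 3.10.9).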

Additional observations from a re-analysis of the deposited data

How the results depend on the processing

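The direction of each LEA_4 gene was kept in all 22 alternatives for CHX alone and for DEX with CHX, and in all 21 for the interaction. The number of members higher for DEX with CHX was 5 without both arrays of lowest weight, 0 with only the arrays compared, and 2 to 5 with 1 array left out. The first of these settings called 107 probe sets higher and 286 lower. The number of members higher for DEX with CHX was 2 with centring, a floor of 64 or no variance trend. It was 4 after quantile normalization or without the 25% of lowest mean. For CHX within DEX-treated cells the number lower, 1, was 5 after quantile normalization, 0 with centring, 3 without the 25% of lowest mean, 0 without the variance trend and 0 to 2 with 1 array left out (0 without replicate 1 or 3 of DEX or replicate 2 or 3 of both; 2 without replicate 2 of neither, 3 of CHX or 1 of both). For both compounds against neither the number lower, 2, was 4 after quantile normalization, 1 with a floor of 64 or the replicate block, and 0 with centring, no variance trend, array weights, only the arrays compared or without both arrays of lowest weight. It was 0 to 3 with 1 array left out. The array left out gave 0 for replicate 2 or 3 of neither and 2 or 3 of both, 1 for replicate 1 of neither, 3 of DEX and 2 or 3 of CHX, and 3 for replicate 1 of CHX. The interaction, with 0 members, called 1 (AT4G36600) after quantile normalization, without the 25% of lowest mean and without replicate 1 of CHX, and 0 to 1 over all arrays left out. Sign changes with a call on either side were AT3G15670 for CHX within DEX-treated cells (-0.54) and AT3G53040 for both against neither (-0.61) after quantile normalization. The members' median for both against neither also turned, at 0.063 with centring and 0.059 without both arrays of lowest weight. With no call on either side, AT4G21020 for DEX without CHX turned in 5 alternatives (0.16 without replicate 2 of neither), and AT2G42560 and AT3G15670 turned with centring (both -0.03). AT2G42560 for CHX within DEX-treated cells turned after quantile normalization (-0.49) and without replicate 3 of both (-0.05). For both against neither, AT2G42560 and AT3G15670 turned after quantile normalization (-0.26 and -0.37), and AT3G53040 without replicate 1 of neither (-0.04). With the replicate block, DEX with CHX called 2 members and 44 probe sets higher. Causes were not tested.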
